A study of Mus musculus with 10 samples.

Results

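The 33 genes described here encode the glucose and lactate transporters, the enzymes and the regulators of glycolysis, the hypoxia factor Hif1a and 6 targets of that factor outside glycolysis. They were chosen by name: every probe that was not a control and whose gene name in the scanner files is one of the 33 was taken, which gave 60 of 41174 probes. All 33 genes passed the filter on dim probes, among 17775 genes and unnamed transcripts tested. Of the 33, 2 are glucose transporters, 19 are glycolytic enzymes, 2 are lactate transporters, 3 are glycolytic regulators, 1 is the transcription factor and 6 are non-glycolytic hypoxia targets.

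The samples were lymphomas that arose spontaneously in ageing mice, 1 tumour per mouse. Total RNA was extracted and measured on single-colour Agilent mouse arrays. One group of 5 mice was heterozygous for the LIP allele of C/EBPβ (+/L), and the other 5 mice were wild type (+/+). C/EBPβ is a leucine zipper transcription factor, and LIP is its shortest translated isoform. The +/L mice were numbers 20, 866, 688, 23 and 517 and were 11 to 21 months old; the +/+ mice were numbers 40, 11, 101, 17 and 19 and were 20 to 29 months old. Age averaged 18.0 ± 4.06 months in +/L and 24.9 ± 3.47 months in +/+ mice (n = 5 each, ± SD, exact two-sided permutation p = 0.0317), so that age and genotype are partly confounded. Palpable tumours were sampled whole, and the labels give no sort and no lymphoma class. Each tumour is a separate animal by its mouse number, and a group holds 5 tumours that may be of different kinds.

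Glycolysis splits glucose into pyruvate in the cytosol, and lactate dehydrogenase turns pyruvate into lactate, which leaves the cell with a proton. Dividing lymphocytes and many lymphomas run this pathway at a high rate also where oxygen is present. When oxygen falls, the prolyl hydroxylases that mark Hif1a for destruction lose activity, and the stabilised factor raises many glycolytic genes together with targets that serve other ends, such as vessel growth, pH control and mitophagy. Hif1a is controlled mainly at the protein level, so that its mRNA is a poor measure of its activity.

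Between 48.0% and 66.7% of non-control spots were well above background on an array. This share averaged 59.9 ± 6.89% in +/L and 59.3 ± 4.91% in +/+ arrays (n = 5 each, ± SD). The signal that sets the scale, each array's 75th percentile, averaged 434 ± 129 in +/L and 288 ± 61.1 in +/+ arrays (n = 5 each, ± SD, exact two-sided permutation p = 0.0317). All 8 B cell and all 8 T cell markers were well above background in every tumour. Mice 20 and 11 are labelled male, yet Xist, the RNA of the inactive X chromosome, stood at 2.17 in +/L mouse 20 and 3.44 in +/+ mouse 11, within the values of the female-labelled mice, and at -5.45 in +/+ mouse 101, the other male-labelled animal. Of the genes on the Y chromosome, Ddx3y, Eif2s3y and Jarid1d were well above background in mouse 101 alone. Another Ddx3y probe, at -4.84 in mouse 101, was so in no mouse. Of 3 Uty probes, 1 was well above background in mouse 20 alone, at -3.33, and none was in mouse 101. Cebpb, the targeted gene, averaged 2.69 ± 0.72 in +/L and 3.42 ± 0.81 in +/+ tumours (n = 5 each, ± SD), and its probes do not tell the isoforms apart. All gene values here are log2 signals relative to that percentile, so that 0 is the percentile and 1 unit is a doubling. Values of one gene can be compared between tumours, and levels of different probes cannot be compared with each other.

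No gene of the 17775 passed an adjusted p of 0.05 between the genotypes in limma (percent called 0), so that 0 of the 33 passed. At an unadjusted limma p under 0.05, 8.58% of all genes tested differed, 5.44% lower and 3.14% higher in +/L. Of the 33 genes, 6 were at that level, all of them lower in +/L tumours: the glucose transporter Slc2a1, the enzymes Gpi1, Gapdh, Eno1 and Hk3, and the hypoxia target P4ha1. Their smallest adjusted p was 0.54. The point estimate was below 0 for 27 of the 33 genes and above 0 for 6, against 51.9% below 0 over all genes tested. The groups did not overlap for 1 of the 33 genes, Slc2a1, against 1.80% of all genes tested. In a bulk tumour, fewer cells that express a gene and less RNA per cell cannot be told apart.

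**Figure D1:**
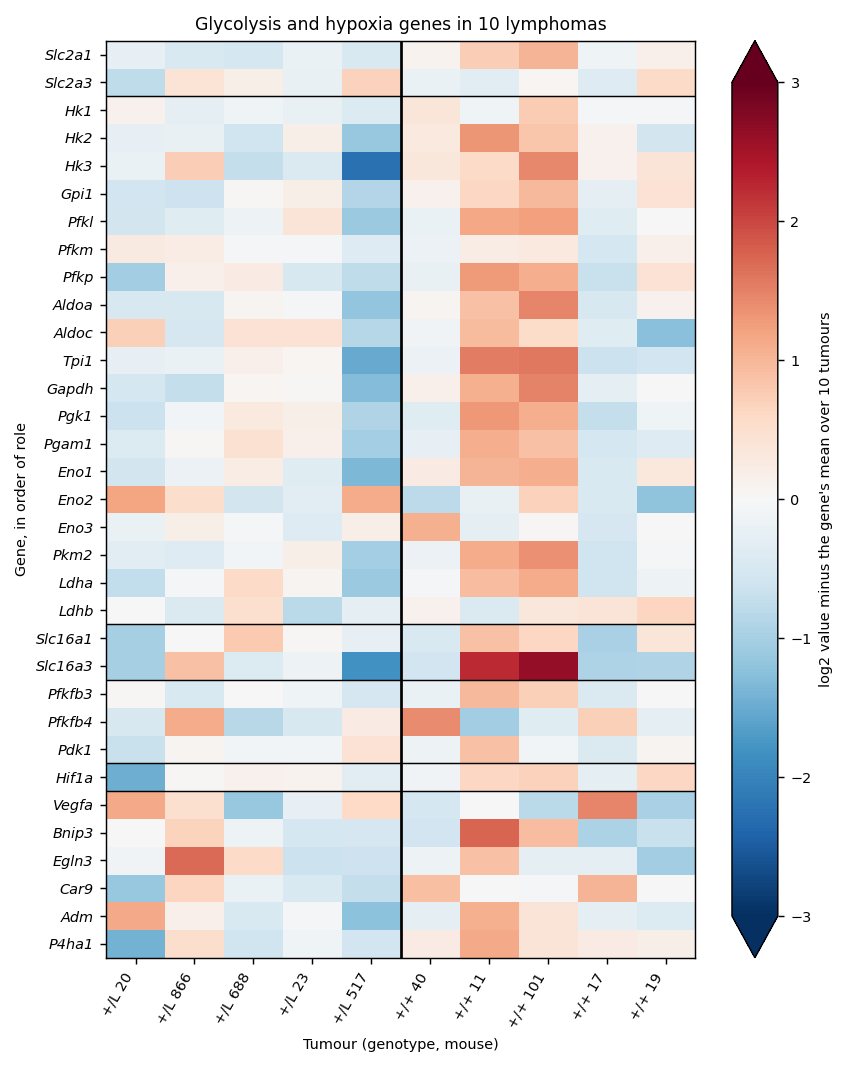
The heat map shows the log2 value of each of the 33 genes (rows, in order of role) minus the mean of that gene over the 10 tumours (columns, +/L tumours on the left, +/+ on the right). Most enzymes were high in +/+ mice 11 and 101 and low in +/L mouse 517, while the hypoxia targets followed no such shared order.

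The 60-base probes below cross an exon junction, as their span on mm9 is longer than the probe, and they hold an open reading frame; they are shown because they read spliced mRNA of enzymes the results turn on. The Eno1 and Pfkp values below come from the probes printed here, and the Gapdh and Ldha values from a brighter probe of the same gene that crosses no junction. They are given 5′ to 3′ with no part marked. The Gapdh probe lies at chr6:125112105-125112274 on the minus strand, the Eno1 probe at chr4:149618134-149618359 on the plus strand, the Ldha probe at chr7:54109426-54110355 on the plus strand and the Pfkp probe at chr13:6581718-6583872 on the minus strand.
Gapdh probe: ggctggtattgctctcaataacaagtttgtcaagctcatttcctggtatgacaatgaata
Eno1 probe: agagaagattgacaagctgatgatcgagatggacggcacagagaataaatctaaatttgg
Ldha probe: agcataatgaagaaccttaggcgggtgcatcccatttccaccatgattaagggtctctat
Pfkp probe: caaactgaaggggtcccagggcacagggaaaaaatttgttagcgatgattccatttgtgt

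Hypoxia-inducible factors bind the core ACGTG or GCGTG, and both were searched on both strands in the 250 bases before each RefSeq start (GRCm38.p6). Of the 33 genes, 32 had an entry, with 46 promoters; Slc2a3 had none. ACGTG was in 45.7% of the 46 promoters, in 33.3% of 30 enzyme promoters and in 71.4% of 7 promoters of the hypoxia targets, against 20.3% of 14844 promoters of the other genes tested. Either core was in 80.4% of the 46, in 76.7% of the enzyme promoters and in 85.7% of the hypoxia target promoters, against 52.1% of promoters of the other genes tested. These short cores arise often in GC-rich sequence, CACGTG is counted on both strands since it reads the same on each, and several promoters of a gene overlap. The promoters of 6 genes are printed below, with the cores and their reverse complements in capitals: Slc2a1, whose groups did not overlap; Gpi1, which has neither core; Gapdh, with GCGTG only; Ldha, with 2 copies of CACGTG; and Bnip3 and P4ha1, the 2 hypoxia targets with the highest median r to the enzymes across tumours. They lie at chr4:119108495-119108744 (plus strand, Slc2a1), chr7:34230337-34230586 (minus, Gpi1), chr6:125165774-125166023 (minus, Gapdh), chr7:46845554-46845803 (plus, Ldha), chr7:138909507-138909756 (minus, Bnip3) and chr10:59323046-59323295 (plus, P4ha1).
Slc2a1 promoter: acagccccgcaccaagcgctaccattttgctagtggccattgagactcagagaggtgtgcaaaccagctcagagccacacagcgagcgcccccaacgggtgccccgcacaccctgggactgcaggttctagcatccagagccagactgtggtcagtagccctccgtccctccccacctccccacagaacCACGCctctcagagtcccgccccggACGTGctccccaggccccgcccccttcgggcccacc
Gpi1 promoter: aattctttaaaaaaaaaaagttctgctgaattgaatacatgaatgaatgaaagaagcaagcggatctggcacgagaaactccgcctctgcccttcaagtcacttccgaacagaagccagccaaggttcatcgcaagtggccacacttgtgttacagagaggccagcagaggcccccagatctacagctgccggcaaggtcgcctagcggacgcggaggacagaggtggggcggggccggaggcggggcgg
Gapdh promoter: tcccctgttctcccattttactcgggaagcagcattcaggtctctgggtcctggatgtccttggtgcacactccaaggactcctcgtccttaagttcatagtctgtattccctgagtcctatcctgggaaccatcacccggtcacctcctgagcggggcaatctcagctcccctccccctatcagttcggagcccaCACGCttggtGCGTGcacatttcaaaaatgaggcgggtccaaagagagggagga
Ldha promoter: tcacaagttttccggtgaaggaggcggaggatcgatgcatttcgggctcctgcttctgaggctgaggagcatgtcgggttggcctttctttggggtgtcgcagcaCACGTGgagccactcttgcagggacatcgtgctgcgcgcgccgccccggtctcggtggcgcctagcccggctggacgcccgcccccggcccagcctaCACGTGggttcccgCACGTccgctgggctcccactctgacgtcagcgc
Bnip3 promoter: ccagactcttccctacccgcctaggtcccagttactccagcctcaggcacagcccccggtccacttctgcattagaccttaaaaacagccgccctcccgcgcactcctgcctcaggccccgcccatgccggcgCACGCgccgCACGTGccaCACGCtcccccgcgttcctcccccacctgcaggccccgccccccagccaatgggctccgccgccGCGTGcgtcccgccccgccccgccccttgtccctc
P4ha1 promoter: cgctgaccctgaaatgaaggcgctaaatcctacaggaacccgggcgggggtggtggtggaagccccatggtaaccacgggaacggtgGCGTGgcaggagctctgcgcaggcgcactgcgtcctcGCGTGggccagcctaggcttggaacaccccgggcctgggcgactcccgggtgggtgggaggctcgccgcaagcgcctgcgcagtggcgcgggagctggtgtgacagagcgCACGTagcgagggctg

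Among the transporters, Slc2a1, the widely expressed glucose transporter GLUT1 and a hypoxia target itself, was lower in every +/L tumour than in any +/+ tumour. Slc2a1 was 2.79, 2.59, 2.52, 2.85 and 2.58 in +/L mice 20, 866, 688, 23 and 517, against 3.14, 3.77, 4.05, 2.92 and 3.20 in +/+ mice 40, 11, 101, 17 and 19. The difference was -0.75 ± 0.24 (log2, SE) with an unadjusted limma p of 0.0105 and an adjusted limma p of 0.54, a 1.68-fold lower signal in +/L. The highest +/L tumour, mouse 23, lay close to the lowest +/+ tumour, mouse 17. The exact two-sided permutation p was 0.0079, which is the smallest 5 against 5 tumours can give. Within groups of arrays that share a barcode entry in the file headers, the Slc2a1 difference was -0.38 for mice 20 and 688 against 40 and 17. It was -1.06 for mice 23 and 517 against mouse 11 alone, and -1.03 for mouse 866 alone against 101 and 19. Arrays with no barcode would fall together in the group of mice 866, 101 and 19, so that this group need not be a single slide. The description labels place mice 866 and 17 in other groups than the headers do. Over all slides the Slc2a1 difference was -0.42 without +/+ mice 11 and 101 and -0.38 with age as a covariate. Its unadjusted limma p was then 0.065 and 0.253. Mice 11 and 101 were picked because their glycolysis scores were known to be the highest, and both are +/+, so that a smaller enzyme difference without them follows from the choice. Slc2a3, the high-affinity glucose transporter GLUT3, ran the other way in its point estimate, 1.07 ± 0.56 in +/L and 0.95 ± 0.39 in +/+ tumours (n = 5 each, ± SD; difference 0.11, adjusted p = 0.94), and its groups overlapped.

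The lactate transporters differed more among tumours of a genotype than between the genotype means. Slc16a3 (MCT4), which exports lactate and is known as a hypoxia target, was 1.30, 3.16, 1.89, 2.15 and 0.47 in +/L mice 20, 866, 688, 23 and 517, against 1.72, 4.53, 4.93, 1.36 and 1.38 in +/+ mice 40, 11, 101, 17 and 19. The +/+ tumours fell into 2 high ones, mice 11 and 101, and 3 that lay inside the +/L range. Its difference of -0.99 ± 0.82 (SE) had an adjusted limma p of 0.76, its range over the 10 tumours was 4.46, and without mice 11 and 101 the difference was 0.31. Slc16a1 (MCT1), which carries lactate in either direction, averaged 1.48 ± 0.64 in +/L and 1.66 ± 0.77 in +/+ tumours (n = 5 each, ± SD; difference -0.18, adjusted p = 0.93).

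Of the 19 glycolytic enzymes, 16 had a point estimate below 0 in +/L, and 4 were at an unadjusted limma p under 0.05 (Gpi1, Gapdh, Eno1 and Hk3, all lower), against 51.9% of all genes tested with a point estimate below 0 and 5.44% lower at that p. Their median difference was -0.66, against -0.02 over all genes tested, and for no enzyme did the groups stay apart. The median enzyme difference was -0.23 without +/+ mice 11 and 101, -0.46 without mice 20 and 11, whose Xist goes against their label, and -0.21 with age as a covariate. Its size also depended on the scaling. It was -0.35 with normexp and quantile scaling, -0.41 with quantile scaling of the processed signal and -0.31 with the deposited values. Centring each array on the middle value of its clearly detected probes gave -0.62. Of 12 housekeeping genes outside glycolysis, 8 had a point estimate below 0 and 4 above, with a median of -0.29.

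In the upper part of the pathway, Gpi1, which turns glucose 6-phosphate into fructose 6-phosphate, was 6.27, 6.21, 6.88, 7.00 and 5.97 in +/L mice 20, 866, 688, 23 and 517, against 6.96, 7.45, 7.80, 6.55 and 7.26 in +/+ mice 40, 11, 101, 17 and 19. All 5 +/L tumours lay below the +/+ median, and mice 688 and 23 overlapped the lower +/+ tumours. The difference was -0.74 ± 0.29 (SE), with an unadjusted limma p of 0.0299, an exact two-sided permutation p = 0.0476 and an adjusted p = 0.56. The hexokinases phosphorylate glucose. Hk3, a hexokinase of myeloid cells, was 1.77, 2.71, 1.25, 1.53 and -0.26 in +/L mice 20, 866, 688, 23 and 517, against 2.31, 2.54, 3.42, 2.09 and 2.35 in +/+ mice 40, 11, 101, 17 and 19. Of the +/L tumours, 4 were below every +/+ tumour and mouse 866 was inside the +/+ range. The difference of -1.14 ± 0.49 (SE) had an unadjusted limma p of 0.0416 and an adjusted one of 0.57, and without +/L mouse 517 it was -0.73. Mouse 517 also had the lowest macrophage marker score of the 10, -2.04 against -0.37 to 0.97 in the others, with all 8 markers detected in every tumour. Of these 8 macrophage markers, 7 had a point estimate below 0 in +/L, with a median of -0.97 over the 8. At an unadjusted limma p under 0.05, 4 were lower (C1qa, C1qb, C1qc and Mpeg1) and 1, Mrc1, was higher (all adjusted limma p 0.54 or above). Over all genes tested, 5.44% were lower and 3.14% higher at that unadjusted p. The groups did not overlap for C1qa and C1qc, against 1.80% of all genes tested. The complement genes C1qa, C1qb and C1qc differed by -1.44, -1.58 and -1.33 and Mrc1 by 2.58. Neutrophil markers, also of myeloid cells, mostly ran the other way: 7 of 8 had a point estimate above 0 in +/L and 1 below. S100a9 (2.99) and Cxcr2 (2.11) were higher and Csf3r (-1.16) lower at that unadjusted p, with all adjusted limma p 0.55 or above. The part of myeloid cells in the Hk3 result was not tested.

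Hk2, the inducible hexokinase, differed by -0.81 ± 0.37 (SE, adjusted p = 0.58), and all 5 +/L tumours lay below the +/+ median. Hk1, the constitutive form, differed by -0.35 ± 0.22 (SE, adjusted p = 0.67), with a smaller spread of 1.17 over the 10 tumours. Phosphofructokinase commits the sugar to glycolysis and has 3 subunits. The liver type Pfkl (-0.72 ± 0.40) and the platelet type Pfkp (-0.76 ± 0.42) had like point estimates, while the muscle type Pfkm was at 0.02 ± 0.22 (SE; adjusted limma p 0.64, 0.64 and 0.99). Aldolase Aldoa (-0.83 ± 0.39, adjusted p = 0.59) and triose phosphate isomerase Tpi1 (-0.69 ± 0.53, adjusted p = 0.74) were lower in their point estimates, and Aldoc, an aldolase known from brain, was not (0.08 ± 0.45, adjusted p = 0.97).

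In the lower part, Gapdh, which makes 1,3-bisphosphoglycerate and is often used as a reference gene, was 6.21, 6.02, 6.81, 6.78 and 5.43 in +/L mice 20, 866, 688, 23 and 517, against 6.90, 7.80, 8.24, 6.48 and 6.76 in +/+ mice 40, 11, 101, 17 and 19. All 5 +/L tumours lay below the +/+ median and 3 lay below every +/+ tumour. The difference was -0.99 ± 0.40 (SE), with an unadjusted limma p of 0.0315, an exact two-sided permutation p = 0.0556 and an adjusted p = 0.56, and the second probe, printed above, gave -0.90. The gene therefore ranged over 2.81 log2 units between these tumours. Eno1, the ubiquitous enolase, was 0.34, 0.72, 1.10, 0.53 and -0.46 in +/L mice 20, 866, 688, 23 and 517, against 1.13, 1.90, 1.97, 0.43 and 1.19 in +/+ mice 40, 11, 101, 17 and 19. Each +/L tumour was below 4 of the 5 +/+ tumours, and +/+ mouse 17 lay among the +/L values. The difference was -0.88 ± 0.37 (SE), with an unadjusted limma p of 0.0366, an exact two-sided permutation p = 0.0635 and an adjusted p = 0.57.

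Ldha, the lactate dehydrogenase subunit that favours lactate, was 5.56, 6.25, 6.88, 6.37 and 5.19 in +/L mice 20, 866, 688, 23 and 517, against 6.23, 7.21, 7.41, 5.71 and 6.14 in +/+ mice 40, 11, 101, 17 and 19. Only mice 11 and 101 stood above the +/L range, and 3 of the 5 +/L tumours were above the +/+ median. The difference of -0.49 ± 0.42 (SE, adjusted p = 0.76) was 0.02 without these 2 mice. Pgk1 (-0.47 ± 0.43) and Pgam1 (-0.32 ± 0.40), the kinase and mutase of 3-phosphoglycerate, had a like pattern and were 0.17 and 0.22 without mice 11 and 101 (adjusted limma p with all tumours 0.79 and 0.85). Pyruvate kinase Pkm2 differed by -0.66 ± 0.41 (adjusted p = 0.67) and Ldhb, the lactate dehydrogenase subunit that favours pyruvate, by -0.42 ± 0.29 (adjusted p = 0.70). Pkm2 is the array's name for the gene now called Pkm, and which isoform its probe reads was not tested. The enolases of other tissues did not move with Eno1. Eno3, the muscle enolase, differed by -0.13 ± 0.29 (adjusted p = 0.92). Eno2, the neuronal enolase, averaged -2.55 ± 0.80 in +/L and -3.33 ± 0.71 in +/+ tumours (n = 5 each, ± SD) and was the enzyme with the highest point estimate, 0.78 ± 0.44 (SE, adjusted p = 0.65). It was well above background in 4 of 5 +/L and 5 of 5 +/+ tumours.

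**Figure D2:**
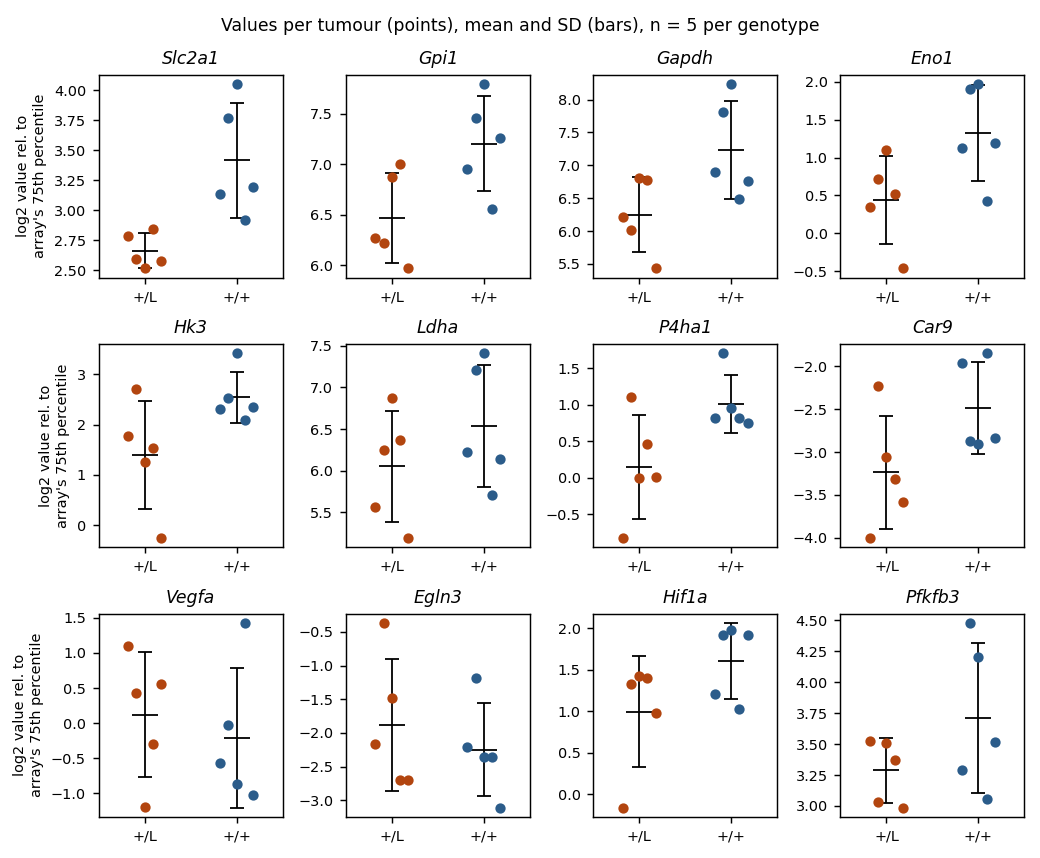
Each panel shows 1 gene, with a point per tumour, +/L left of +/+, and bars for the mean and SD (n = 5 each) on the log2 scale relative to the 75th percentile of the array. Slc2a1 alone has groups that do not overlap; in Gapdh, Eno1 and Ldha the 2 highest points are +/+ mice 11 and 101, and Vegfa and Egln3 have higher means in +/L.

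The regulators set the rate of the pathway or keep pyruvate out of the mitochondrion. Pfkfb3, whose product fructose 2,6-bisphosphate activates phosphofructokinase, was 3.53, 3.03, 3.51, 3.37 and 2.99 in +/L mice 20, 866, 688, 23 and 517, against 3.29, 4.48, 4.21, 3.06 and 3.51 in +/+ mice 40, 11, 101, 17 and 19. Again mice 11 and 101 were above all others and the remaining 8 tumours overlapped. Its difference was -0.42 ± 0.30 (SE, adjusted p = 0.71), and 0.13 with age as a covariate. Pfkfb4, an isoform of the same family, differed by -0.18 ± 0.51 (adjusted p = 0.94), and Pdk1, which inhibits pyruvate dehydrogenase, by -0.13 ± 0.29 (adjusted p = 0.92).

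Hif1a, the oxygen-regulated subunit of the factor, was -0.16, 1.33, 1.43, 1.41 and 0.98 in +/L mice 20, 866, 688, 23 and 517, against 1.21, 1.92, 1.98, 1.02 and 1.92 in +/+ mice 40, 11, 101, 17 and 19. The +/L tumour of mouse 20 was far below the rest, and the other 4 +/L tumours lay among or just below the lower +/+ tumours. The difference was -0.61 ± 0.35 (SE, adjusted p = 0.65), and -0.32 without mouse 20.

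The 6 non-glycolytic hypoxia targets did not share a direction. Their median difference was -0.18, and 4 of 6 had a point estimate below 0, against 51.9% of all genes tested. At an unadjusted limma p under 0.05, 1 was lower, P4ha1, against 5.44% of all genes tested. The median of the 6 targets was -0.05 without mice 20 and 11 and 0.21 without mice 11 and 101. P4ha1, the catalytic subunit of the prolyl hydroxylase that matures collagen, was -0.83, 1.11, -0.01, 0.46 and 0.01 in +/L mice 20, 866, 688, 23 and 517, against 0.82, 1.71, 0.96, 0.82 and 0.75 in +/+ mice 40, 11, 101, 17 and 19. Of the +/L tumours, 4 were below every +/+ tumour and mouse 866 was above 4 of them. The difference was -0.86 ± 0.35 (SE), with an unadjusted limma p of 0.0322, an exact two-sided permutation p = 0.0397 and an adjusted p = 0.56, and -0.45 without mice 20 and 11.

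Car9, a membrane carbonic anhydrase and one of the most strictly hypoxia-induced genes known in solid tumours, was -4.00, -2.23, -3.06, -3.32 and -3.58 in +/L mice 20, 866, 688, 23 and 517, against -1.96, -2.87, -2.91, -1.85 and -2.84 in +/+ mice 40, 11, 101, 17 and 19. It was well above background in 3 of 5 +/L and 5 of 5 +/+ tumours, so that part of the difference of -0.75 ± 0.36 (SE, adjusted p = 0.60) lies near the floor of the array. The highest Car9 values were those of mice 17 and 40, not of mice 11 and 101. Vegfa, the vessel growth factor, was 1.11, 0.43, -1.19, -0.29 and 0.56 in +/L mice 20, 866, 688, 23 and 517, against -0.57, -0.02, -0.86, 1.43 and -1.03 in +/+ mice 40, 11, 101, 17 and 19. High and low tumours occurred in both groups (difference 0.33 ± 0.54, SE, adjusted p = 0.89). Egln3, an oxygen-sensing prolyl hydroxylase that the factor induces, was -2.17, -0.37, -1.48, -2.70 and -2.70 in +/L mice 20, 866, 688, 23 and 517, against -2.21, -1.19, -2.36, -2.36 and -3.11 in +/+ mice 40, 11, 101, 17 and 19. Its highest value was that of +/L mouse 866, and the groups overlapped (difference 0.36 ± 0.49, SE, adjusted p = 0.86).

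Bnip3, a mitophagy receptor, averaged 0.26 ± 0.49 in +/L and 0.45 ± 1.18 in +/+ tumours (n = 5 each, ± SD; difference -0.19, adjusted p = 0.94). It was 2.11 in mouse 11 and 1.29 in mouse 101 and was the hypoxia target that most resembled the enzymes. Adm, the vasodilator peptide adrenomedullin, averaged -0.66 ± 0.86 in +/L and -0.48 ± 0.62 in +/+ tumours (n = 5 each, ± SD; difference -0.18, adjusted p = 0.93).

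**Figure D3:**
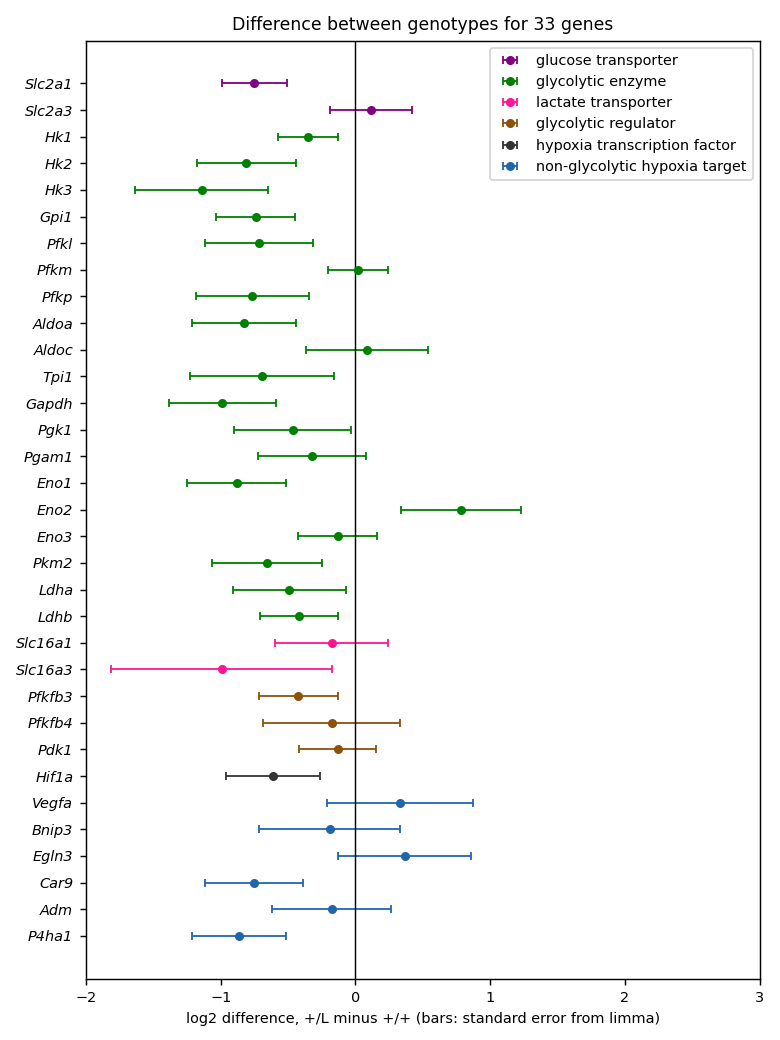
Points give the log2 difference between genotypes (+/L minus +/+) for each of the 33 genes in order of role, coloured by role, and bars the standard error from limma. The enzyme differences run from -1.14 (Hk3) to 0.78 (Eno2) and the hypoxia targets from -0.86 (P4ha1) to 0.36 (Egln3); no gene passed the adjusted threshold.

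Across the 10 tumours the enzymes formed a tighter set than the hypoxia targets. Pearson's r between 2 enzymes over the 10 tumours had a median of 0.62 over 171 pairs, with 70 pairs above 0.7 and 35 below 0. Between 2 hypoxia targets the median was 0.18 over 15 pairs with none above 0.7, and between an enzyme and a hypoxia target it was 0.29 over 114 pairs. These correlations are descriptions: the points share arrays, scaling and the cells of each tumour, and pairs share genes. Pairs of other genes were not set beside them. Car9 was well above background in 8 and Eno2 in 9 of the 10 tumours, and every other enzyme and target in all 10. The part of low signal in these correlations was not tested. Without +/+ mice 11 and 101, over 8 tumours, the medians were 0.42, 0.09 and 0.14.

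The core of the set was Aldoa with Gapdh (r = 0.99), Pfkl with Pkm2 (0.98) and Pgk1 with Pgam1 (0.97). Slc2a1 was closest to Gapdh (0.89), Slc16a3 to Tpi1 (0.93) and Pfkfb3 to Pkm2 (0.93), so that these genes ran with the trunk of the pathway. The other transporters and regulators did so less or not at all. Slc16a1 had a median r to the enzymes of 0.62 and Pdk1 of 0.24. Outside the trunk stood Eno2, Eno3 and Ldhb, with median r to the enzymes of -0.18, -0.05 and 0.02, together with Slc2a3 (-0.19) and Pfkfb4 (-0.43). Of the hypoxia targets, Bnip3 had a median r to the enzymes of 0.63 and was closest to Slc16a3 (0.87). P4ha1 (0.53) was closest to Hif1a (0.78), and Adm (0.49) to Aldoc (0.73). Egln3 was at 0.24 and Car9 at 0.16, and Vegfa ran against the enzymes at -0.46. Hif1a was itself closest to Pfkp (0.85) and had a median r of 0.20 to the 6 targets.

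**Figure D4:**
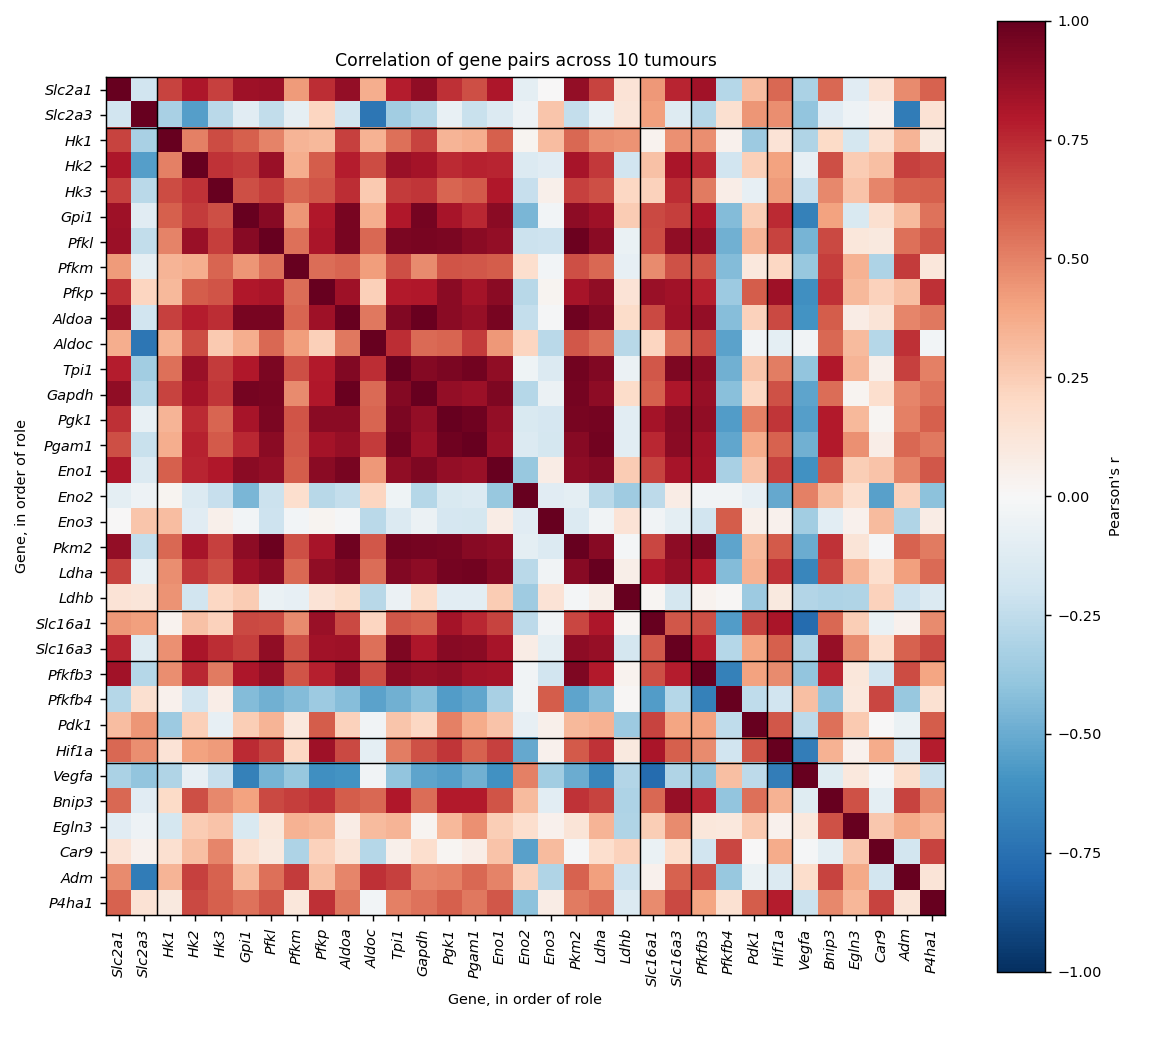
Colour gives Pearson's r over the 10 tumours for each pair of the 33 genes, in order of role with lines between roles. A block of enzymes with Slc2a1, Slc16a3 and Pfkfb3 is red throughout, while Eno2, Eno3, Ldhb, Slc2a3, Pfkfb4 and Vegfa stand outside it; the median r was 0.62 within the enzymes and 0.18 within the hypoxia targets.

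A score per tumour, the mean over genes of the log2 value minus the mean of that gene over the 10 tumours, sums this up. The enzyme score was -0.23, -0.14, 0.04, -0.07 and -0.85 in +/L mice 20, 866, 688, 23 and 517, against 0.01, 0.74, 0.96, -0.36 and -0.10 in +/+ mice 40, 11, 101, 17 and 19. Mice 11 and 101 were the 2 highest and mouse 517 the lowest, and the other 7 tumours of both genotypes lay between -0.36 and 0.04. The score averaged -0.25 ± 0.35 in +/L and 0.25 ± 0.57 in +/+ tumours (n = 5 each, ± SD), and the difference of -0.50 was -0.10 without mice 11 and 101 and -0.35 without mouse 517. Mouse 517 too was picked for its extreme enzyme score.

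The hypoxia target score was -0.06, 0.69, -0.33, -0.34 and -0.51 in +/L mice 20, 866, 688, 23 and 517, against -0.07, 0.81, 0.09, 0.20 and -0.49 in +/+ mice 40, 11, 101, 17 and 19. It was highest in 1 tumour of each genotype, mice 866 and 11, and its difference of -0.21 was 0.01 without mice 11 and 101. The 2 scores ordered the tumours differently: mouse 101 was highest for the enzymes and at 0.09 for the hypoxia targets, and mouse 866 was at -0.14 for the enzymes and second for the hypoxia targets. Over the 10 tumours their r was 0.47, and over the 8 tumours without mice 11 and 101 it was 0.18.

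**Figure D5:**
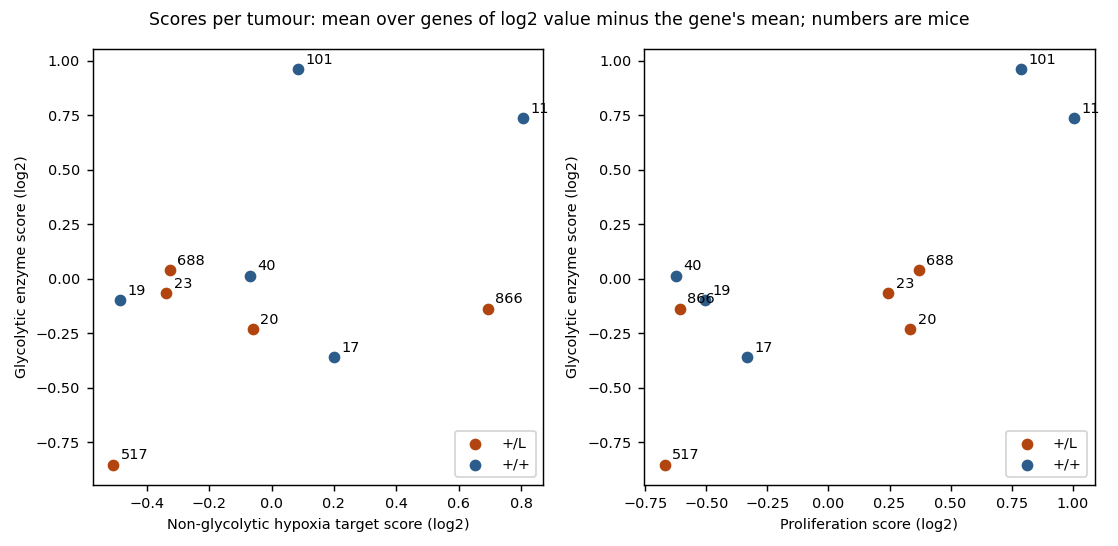
Each point is a tumour, labelled with its mouse number and coloured by genotype. The enzyme score (vertical, log2) is set against the hypoxia target score on the left and against a score of 12 proliferation genes on the right. Mice 11 and 101 are highest for the enzymes and for proliferation, and mouse 866 is high for the hypoxia targets with an enzyme score of -0.14.

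Other features of the tumours were set beside the enzyme score. The proliferation score over 12 mitotic genes was 0.34, -0.61, 0.37, 0.25 and -0.67 in +/L mice 20, 866, 688, 23 and 517, against -0.62, 1.01, 0.79, -0.33 and -0.50 in +/+ mice 40, 11, 101, 17 and 19, again highest in mice 11 and 101 and lowest in mouse 517. Its r with the enzyme score was 0.77 over 10 tumours and 0.38 over 8 without mice 11 and 101, and with the hypoxia score 0.31 and -0.22. The score of 12 housekeeping genes outside glycolysis spanned -0.36 to 0.21 among +/L and -0.34 to 0.52 among +/+ tumours, and its r with the enzyme score was 0.88 over 10 and 0.66 over 8 tumours. These 12 include Tfrc, which is also in the wider hypoxia list below. Tfrc was 1.65 and 1.17 in mice 11 and 101 and -2.12 to 0.40 in the other tumours, and the score was not computed without it. Neutrophil markers were lowest in mice 11 and 101 (-2.90 and -2.50), with a range of -1.31 to 2.72 among +/L and -2.90 to 1.37 among +/+ tumours, and with 7 or 8 of 8 markers detected per +/L tumour and 3 to 8 per +/+ tumour. Endothelial markers were also lowest in these mice (-1.02 and -1.32), with a range of -0.30 to 0.37 among +/L and -1.32 to 1.13 among +/+ tumours and 7 or 8 of 8 markers detected. Adipocyte markers had the highest median difference of the marker lists, 2.46 over the 7 of 8 measured, with all 7 higher in +/L in their point estimates. Of these, 3 were at an unadjusted limma p under 0.05, against 3.14% of all genes tested that were higher at that p. Their score averaged 1.38 ± 2.06 in +/L and -1.38 ± 1.90 in +/+ tumours (n = 5 each, ± SD), lowest in mice 11, 17 and 101 (-2.76, -2.36 and -2.31), with 5 to 7 markers detected per +/L and 4 to 7 per +/+ tumour. Its r with the enzyme score was -0.21 over 10 tumours and 0.68 over 8 without mice 11 and 101, and that of the macrophage score was 0.35 and 0.73. In the same order, r was -0.79 and -0.24 for the endothelial score and -0.73 and -0.27 for the neutrophil score. It was 0.62 and 0.58 for the muscle score and 0.476 and 0.285 for the erythroid score. For the B cell score it was 0.21 and -0.27, and for the T cell score 0.12 and 0.19. The part of these cells in the enzyme result was not tested. Mouse 866, high for the hypoxia targets, had the highest neutrophil score, 2.72, and the lowest B cell score, -1.62, and that too was not tested. Muscle markers, of a tissue that also expresses Eno3, Pfkm and Aldoa, spanned -1.29 to 0.59 among +/L and -0.52 to 0.86 among +/+ tumours over the 6 of 8 that passed the filter.

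Genes around the pathway were read from the same fit. Of 7 pentose phosphate genes, which branch from glucose 6-phosphate, 1 was at an unadjusted limma p under 0.05, against 8.58% of all genes tested. It was G6pdx, the first enzyme of the branch, whose groups did not overlap, against 1.80% of all genes tested. G6pdx averaged 3.11 ± 0.45 in +/L and 3.87 ± 0.35 in +/+ tumours (n = 5 each, ± SD), with a difference of -0.76 and an adjusted limma p of 0.54. The list ran with the enzymes, with r of 0.90 between the scores over 10 tumours and 0.73 over 8 without mice 11 and 101. Of 30 other genes of glycolysis and pyruvate use, 22 were measured and 0 were at an unadjusted limma p under 0.05, with a median difference of 0.06. Of 35 other hypoxia genes, all measured, 2 were lower and 1 was higher at that level, a share near the 8.58% of all genes tested, and the median difference was 0.01. Arnt2, a partner subunit of hypoxia factors, had a point estimate of -1.07, and that of Car12, a second membrane carbonic anhydrase, was 2.64 (adjusted limma p 0.57 and 0.55). Arnt2 and Car12 were well above background in 5 and 6 of the 10 tumours. The score of the 35 genes had r of 0.93 with that of the 6 targets and 0.35 with the enzyme score over 10 tumours.

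Several genes were read by more than 1 probe, and 14 had at least 2 that passed the filter. The probes had the same sign of difference for 8 of these 14. For Aldoa (-0.84 and -0.83), Gapdh, Ldha, Pgk1 and P4ha1 they also correlated at 0.956 or above across the tumours. For Aldoc, Hk1, Pdk1, Pfkp, Slc16a1 and Vegfa the signs disagreed: Pfkp probes gave -1.36 to 0.02 and Vegfa probes -0.10 to 0.33. A Pkm2 probe to another transcript record gave -0.06 and correlated at 0.19 with the probe used. Pgk1, Gpi1 and Vegfa had 10 spots per array, whose median SD was 0.06, 0.04 and 0.06, so that spot noise was small beside the spread between tumours.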

How the data were processed

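Per the file headers, the authors obtained every spot intensity by scanning arrays of 45018 spots, annotated on mm9, and running Feature Extraction 10.5.1.1. A deposited table of log2 values, used as an alternative, matched the arrays column by column (10 of 10, correlations 0.967 to 0.996); how it was normalised is not stated in the labels or headers. Genotype, age, sex and mouse number were taken from the labels, and slide from the barcode entry of the file headers. Processed signals of non-control spots were put on the log2 scale and each array's 75th percentile was subtracted. Spots with an outlier flag were left out, spots of a probe were averaged, probes that at least 3 of 10 arrays measured well above background were kept (26410), and the brightest probe stood for a gene. limma 3.58.1 in R 4.3.3 was fitted to all 17775 genes by genotype with no covariate (lmFit, then eBayes), with Benjamini-Hochberg adjustment over all of them and a threshold of 0.05; single values also got an exact two-sided permutation test over 252 splits. Precision is limited by the number of arrays. On simulated data with 17775 genes, 200 of them changed, the fit recovered 17.6%, 66%, 84.8% and 92.4% of genes changed by 1, 2, 3 and 4 log2 units. Promoter sequences are from RefSeq (GRCm38.p6), and probe sequences from the files. Genes named with all 10 values are the 4 enzymes, 3 hypoxia targets, transporter and regulator of lowest p, plus Slc2a1, Gapdh, Ldha, Hif1a, Vegfa and Car9; of the other pathway genes, those at an unadjusted p under 0.05, at most 3 per list. All 10 values of Slc16a3 were added after they were seen. Members and lists were chosen with earlier results of these data known. Alternatives varied the filter, scaling, background, source of values, probe rule, test, slide, covariates and the set of mice. The values of 1 gene of the wider hypoxia list are not reported here.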

Additional observations from a re-analysis of the deposited data

Results flagged for a closer look

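Values of 33 genes and 2 scores in each genotype made 70 groups of 5 tumours that were searched for a single tumour far from the rest; 3 were found, and chance alone gives about 3.5, or 1 in 20. Tpi1 was 3.70 in +/L mouse 517, with the nearest +/L tumour at 4.97. Hif1a was -0.16 in +/L mouse 20, with the nearest +/L tumour at 0.98. P4ha1 was 1.71 in +/+ mouse 11, with the nearest +/+ tumour at 0.96. Mice 20 and 11 are also those whose Xist value goes against their label.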

How the results depend on the processing

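No paired analysis was possible because mouse numbers are not shared between the genotypes. In all 25 alternatives 0 of the 33 genes passed the adjusted threshold (smallest adjusted limma p 0.29), and 16 genes kept the sign of their difference in all 25 while 17 did not. The count at an unadjusted limma p under 0.05, 6 as reported, was 3 with the deposited value table, 2 with the header slide blocked, 1 with the slide in the description labels blocked, 2 with age as a covariate, 0 in female-labelled mice, 1 without mice 20 and 11 and 2 without mice 11 and 101, and 1 to 9 when 1 mouse was left out (1 without +/L mouse 517 or +/+ mouse 11, 2 without +/L mouse 20 or +/+ mouse 101). Over all genes tested, the share at that p was 8.58% as reported and 9.46% with the deposited value table. That share can also move with fewer mice or a covariate, and it is not given here for every setting. A lower count is therefore not by itself a result about these genes. The causes were not tested. The enzyme median was -0.11 in female-labelled mice and -0.88 to -0.39 when 1 mouse was left out; the hypoxia target median was 0.07 with sex as a covariate, 0.21 without mice 11 and 101 and -0.36 to 0.14 when 1 mouse was left out. Signs turned in these settings. Normexp with quantile: Eno3 0.014. Deposited value table: Pgam1 0.0084, Eno3 0.024. Mean of probes: Aldoc -0.14, Pdk1 0.018. Header slide: Aldoc -0.032. Slide of the description labels: Pfkm -0.031, Aldoc -0.39, Egln3 -0.25. Age as a covariate: Slc2a3 -0.18, Pgam1 0.014, Slc16a1 0.11, Pfkfb3 0.13, Pdk1 0.072, Vegfa -0.048, Bnip3 0.25, Egln3 -0.14, Adm 0.22. Sex as a covariate: Bnip3 0.069, Adm 0.071. Female-labelled mice: Tpi1 0.089, Pgk1 0.28, Pgam1 0.29, Ldha 0.15, Slc16a1 0.49, Slc16a3 0.43, Pdk1 0.25, Vegfa -0.068, Bnip3 0.61. Without mice 20 and 11: Slc16a1 0.25, Pdk1 0.23, Bnip3 0.20. Without mice 11 and 101: Tpi1 0.12, Pgk1 0.17, Pgam1 0.22, Ldha 0.024, Slc16a1 0.26, Slc16a3 0.31, Pdk1 0.10, Bnip3 0.64, Adm 0.24. With 1 mouse left out, the difference ran from -0.12 to 0.12 for Pfkm, -0.22 to 0.33 for Aldoc, -0.44 to 0.052 for Slc16a1, -0.25 to 0.074 for Pdk1, -0.48 to 0.15 for Pfkfb4, -0.45 to 0.22 for Bnip3, -0.48 to 0.11 for Adm, -0.27 to 0.12 for Eno3, -0.044 to 0.32 for Slc2a3 and -0.015 to 0.63 for Egln3.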
